A study of Homo sapiens with 12 samples.

Results

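The keratins of basal and luminal mammary epithelium were followed through the gradient fractions of WT and CBFB_KO MCF10A cells. The 10 genes were chosen by name, 6 keratins of basal cells (KRT5, KRT6A, KRT14, KRT15, KRT16 and KRT17) and 4 keratins of luminal cells (KRT7, KRT8, KRT18 and KRT19), out of 56632 genes in each table. All 10 passed the filter on low counts, which kept 16275 genes. MCF10A is a line of human breast epithelium that does not form tumours, and CBFB_KO cells were derived from it by CRISPR-Cas9 editing of CBFB and grown from single cells, so a difference from WT cells can also be one between clones. All cells were exposed to cycloheximide at 100 µg/ml for 30 min, which holds ribosomes on mRNA, and lysates were spread over a sucrose gradient of 10 to 50%. RNA was then sequenced from the free fraction (mRNA apart from monoribosomes and polyribosomes), the mono fraction (the monoribosome) and the poly fraction (the pooled polyribosomes), with 2 libraries for each of the 6 combinations of genotype and fraction, 12 libraries in all. The comparison between genotypes asks which mRNAs shift between ribosome-free and ribosome-bound fractions when CBFB, a partner of RUNX transcription factors that the study also examined in the cytoplasm, is lost.

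Keratins are the proteins of epithelial intermediate filaments. Each filament is built from pairs of a type I (acidic) and a type II (basic to neutral) chain, so that a cell needs partners from both families. KRT5 (type II) pairs with KRT14 (type I) in the basal layer of the mammary duct, and KRT15 is a further type I chain of basal cells. KRT6A (type II), KRT16 and KRT17 (type I) are induced in wounded or dividing epithelium and are common in basal-like breast cancer. KRT8 (type II) and KRT18 (type I) form the filament of simple epithelium, joined in luminal cells by KRT7 (type II) and KRT19 (type I).

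The chains are near copies of each other in places, which matters here because short reads from such stretches were shared out between genes by the authors' software. The stretch that closes the central rod of a keratin is the most conserved of all, and it is shown as the 30 coding bases that begin there, read from GENCODE 29 transcripts, with capitals at the bases that differ from KRT14 (type I chains) or from KRT5 (type II chains).
KRT14: acctaccgccgcctgctggagggcgaggac
KRT16: acctaccgccgcctgctggagggcgaggaT
KRT17: acctaccgccgcctgctggagggAgaggaT
KRT15: acTtaccgcAgcctgctCgagggcCaggaT
KRT19: acctaccgcAgcctgctCgagggACaggaA
KRT18: acctaccgccgcctgctggaAgATgGCgaG
KRT5: acttaccgcaagctgctggagggcgaggaa
KRT7: acCtaccgcaagctgctggagggcgaggaG
KRT6A: acCtaccgcaagctgctggagggTgaggaG
KRT8: acCtacAgGaagctgctggagggcgaggaG
KRT16 differed from KRT14 at 1 of these bases and KRT17 at 2, while KRT18 differed at 6. Bases were compared position by position without gaps, and an extra codon in KRT18 (gat) shifts the bases after it. The run of KRT7 was also found letter for letter in 6 other genes, and that of KRT8 in 11 pseudogenes. Over whole transcripts, the share of 75-base stretches also present in another gene on either strand was 26.2% for KRT6A (mostly KRT6C), 25.5% for KRT18 (mostly the KRT8 locus), 17.8% for KRT8 (mostly pseudogenes), 10.0% for KRT14, 9.7% for KRT16, 9.0% for KRT7, 4.6% for KRT17 and 2.4% for KRT5. No stretch of KRT15 or KRT19 was shared. Reads of KRT6A, KRT18 and KRT8 were thus the most open to such sharing. In that annotation (build GRCh38) the type II genes and KRT18 lie on chromosome 12 and the other type I genes on chromosome 17.

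Total expected counts lay between 41050325 and 63886726 per library. The CBFB_KO free libraries stood apart, with 71.56% and 87.22% of their counts on mitochondrially encoded genes against 1.26 to 20.81% elsewhere, which left 13568143 and 5247878 other counts against at least 43279862. The 2 CBFB_KO poly libraries stood apart in another way, since their mean chi-square per gene was 2.209 against 118.5 to 901.5 for the other pairs. They differed by more than counting error but far less than any other pair, and whether that pair came from separate gradients was not tested. CBFB mRNA itself was at 5.72 and 6.84 normalised CPM in WT poly and 3.59 and 4.01 in CBFB_KO poly libraries (log2 change -0.72 ± 0.43 SE, adjusted p = 1), and gene counts do not read the edited sequence. Summed TPM of 7 fibroblast markers stayed at or under 3.05 (COL1A1 and DCN reached above 1 TPM). That of 3 leukocyte markers stayed at or under 6.37 (CD68 alone above 1 TPM), and that of endothelial and adipocyte markers at or under 0.36. CDH1 and EPCAM, which mark epithelium, summed to 30.21 to 94.44 TPM in poly libraries. In free libraries their sum was 6.41 to 7.68 in WT, near the 5.85 to 6.37 of the leukocyte markers there, and 2.92 to 8.31 in CBFB_KO. In mono libraries it was 2.9 to 3.29 in WT and 2.35 to 2.43 in CBFB_KO.

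Per transcript length, MCF10A cells carried a mostly basal set with KRT7 beside it. In WT poly libraries KRT15 (1932.57 TPM), KRT17 (1928.07), KRT5 (1802.49) and KRT7 (1602.68), all means of 2, were the highest members, and neighbours in that order overlapped between libraries. KRT6A followed at 903.69 TPM, KRT18 at 538.55, KRT8 at 277.20, KRT16 at 90.70, KRT14 at 20.75 and KRT19 at 1.72, and from KRT7 downwards no neighbours overlapped. KRT14 was thus low in WT cells beside KRT5, its partner. KRT19, a defining luminal keratin, reached at most 1.80 TPM in any library, so the luminal label rests on KRT7, KRT8 and KRT18 in these cells. In CBFB_KO poly libraries the order was KRT17 (2019.93 TPM), KRT7 (1666.35), KRT5 (1273.94), KRT15 (883.28), KRT6A (788.85), KRT18 (402.48), KRT14 (129.25), KRT8 (119.18), KRT16 (85.00) and KRT19 (0.97), with no overlap between neighbours. KRT15 thus went from the top of the order to the middle, and KRT14 from below KRT16 to above KRT8. The 10 genes made up 0.841% and 1.02% of TPM outside mitochondrial genes in WT poly and 0.748% and 0.761% in CBFB_KO poly libraries.

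**Figure D1:**
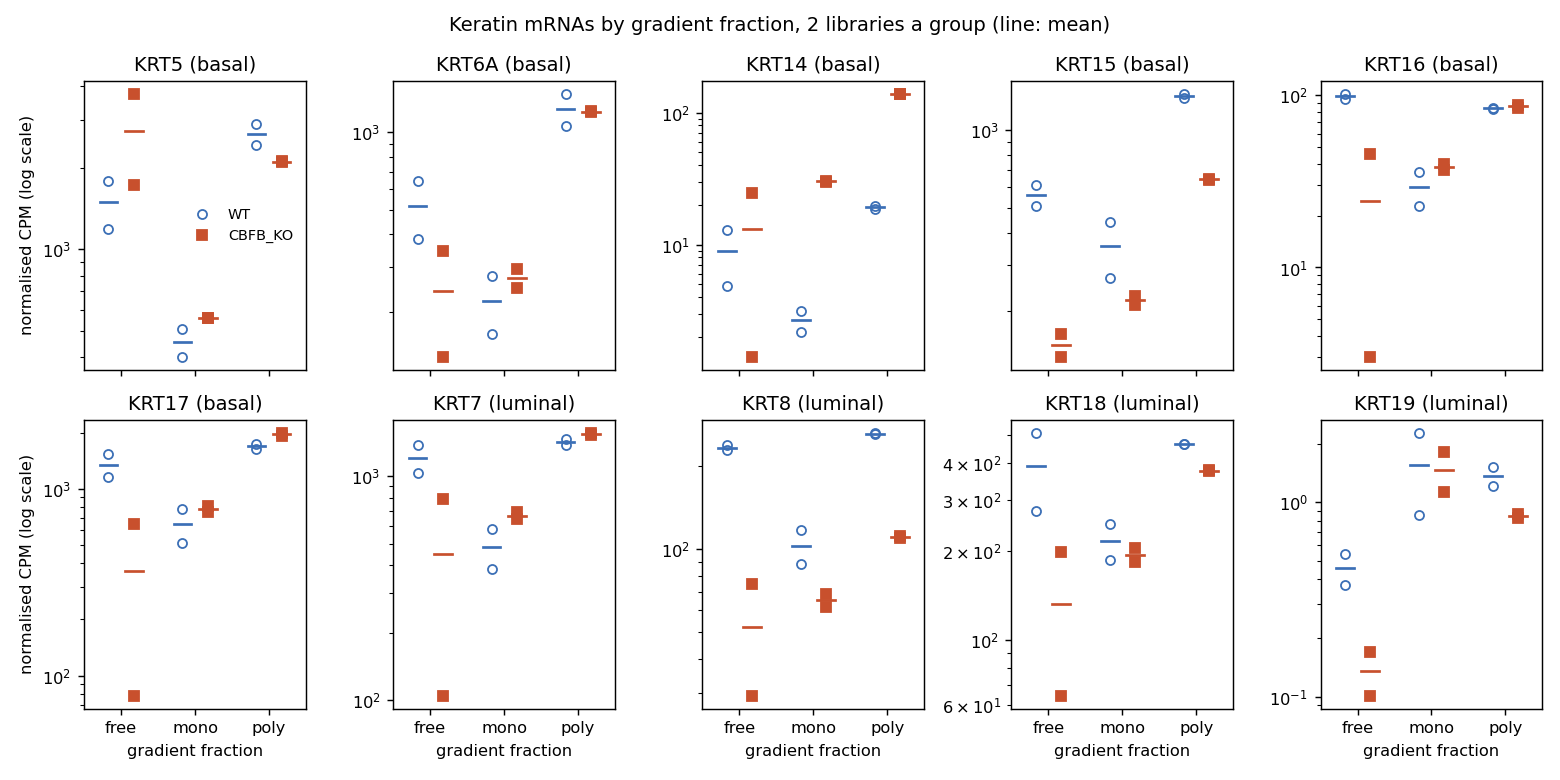
Normalised CPM (log axis, a scale of its own in each panel) of the 10 keratins in the free, mono and poly fractions, with 2 WT (open circles) and 2 CBFB_KO (filled squares) libraries per fraction and a line at the mean. KRT14 lies higher in CBFB_KO than WT in mono and poly, KRT15 and KRT8 lie lower in all 3 fractions, and the CBFB_KO free libraries scatter widely, as for KRT16 at 45.9 and 3.03.

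In the polyribosomes, 3 of the 10 members differed most between the genotypes: KRT14 was higher and KRT15 and KRT8 were lower in CBFB_KO cells. Levels are given as normalised CPM, expected counts scaled to a common library size with TMM factors. Bulk libraries cannot tell fewer cells with a keratin from less of its mRNA per cell. KRT14, the type I partner of KRT5, stood at 18.7 and 19.7 in WT and at 137.6 and 138.0 in CBFB_KO poly libraries, a 7.17-fold difference (log2 change 2.84 ± 0.91 SE). KRT15 stood at 1326 and 1375 in WT and 641.6 and 648.4 in CBFB_KO (-1.07 ± 0.37). KRT8 stood at 261.8 and 263.2 in WT and 110.0 and 111.3 in CBFB_KO (-1.25 ± 0.44). The genotypes did not overlap for any of these genes.

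How many of them were called depended on which libraries set the spread. In the edgeR fit over all 12 libraries, where the wide CBFB_KO free pair enters the spread, 0 of 10 members were called (adjusted p = 0.927 for KRT14 and 1 for KRT15 and KRT8), beside 0.19% of all genes. Unadjusted p was under 0.05 for 3 members and 451 genes in that fit, and DESeq2 called KRT14 and KRT15 (0.696% of genes called). Without the CBFB_KO free libraries, KRT14 was called (adjusted p = 0.0315, 0.261% of genes called). In edgeR fitted to the 4 poly libraries alone, 3 of 10 members were called, beside 1.18% of all genes: KRT14 (2.82 ± 0.11, adjusted p = 0.00745), KRT8 (-1.26 ± 0.10, adjusted p = 0.0238) and KRT15 (-1.08 ± 0.10, adjusted p = 0.0318). When the near-equal CBFB_KO poly pair was summed and counted as 1 sample in that fit, an alternative chosen after seeing the data, KRT14 (adjusted p = 9.12e-12) and KRT8 (0.0475) remained called and KRT15 did not (0.131; 1.06% of genes called), with the lone sample assumed to vary like the WT pair. Across every setting tried, the log2 change lay between 2.58 and 2.91 for KRT14, -1.14 and -1.01 for KRT15, and -1.32 and -1.20 for KRT8.

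The other 7 keratins of the polyribosomes moved less. KRT17 stood at 1746 and 1638 in WT against 1923 and 1984 in CBFB_KO poly libraries (log2 change 0.21 ± 0.69), KRT7 at 1376 and 1457 against 1524 and 1554 (0.12 ± 0.67), and KRT18 at 464.0 and 462.9 against 375.0 and 379.4 (-0.30 ± 0.51). KRT5 was at 2426 and 2899 against 2124 and 2099 (-0.34 ± 0.41), and KRT6A, at 1054 and 1407 against 1208 and 1199, was the only member that overlapped between the genotypes. KRT16 (84.6 and 83.5 against 84.8 and 88.4) differed by 0.04 ± 0.80 on the log2 scale. KRT19 was near 1 normalised CPM in both genotypes. In all, 4 members lay higher and 5 lower in CBFB_KO without overlap, beside 24.7% and 25.0% of all genes, and the median log2 change was -0.16 over the members and -0.03 over all genes. None of these 7 was called in either fit.

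In the mono fraction KRT14 again had the largest difference of the 10 members. It stood at 3.13 and 2.19 normalised CPM in WT and at 30.4 and 30.1 in CBFB_KO mono libraries, 11.4-fold higher (log2 change 3.50 ± 0.94). The edgeR fit over all libraries called 0 of 10 members, beside 0.147% of all genes, with adjusted p = 0.449 for KRT14. That fit gave an unadjusted p under 0.05 for 1 member and 712 genes. Fitted to the 4 mono libraries alone, KRT14 had an adjusted p of 0.0501, just above the threshold (0.0411% of genes called), and DESeq2 called it (adjusted p = 0.00174, 0.774% of genes called). Without the CBFB_KO free libraries edgeR called it as well (adjusted p = 0.0131, 0.31% of genes called). KRT15 (441.2 and 267.2 in WT, 228.1 and 210.6 in CBFB_KO) and KRT8 (117.6 and 88.2 in WT, 61.4 and 68.8 in CBFB_KO) lay lower without overlap, at -0.69 ± 0.36 and -0.66 ± 0.44. The remaining 7 members lay between -0.16 and 0.47 on the log2 scale. In all, 4 members lay higher and 2 lower without overlap, beside 17.0% and 12.9% of all genes.

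**Figure D2:**
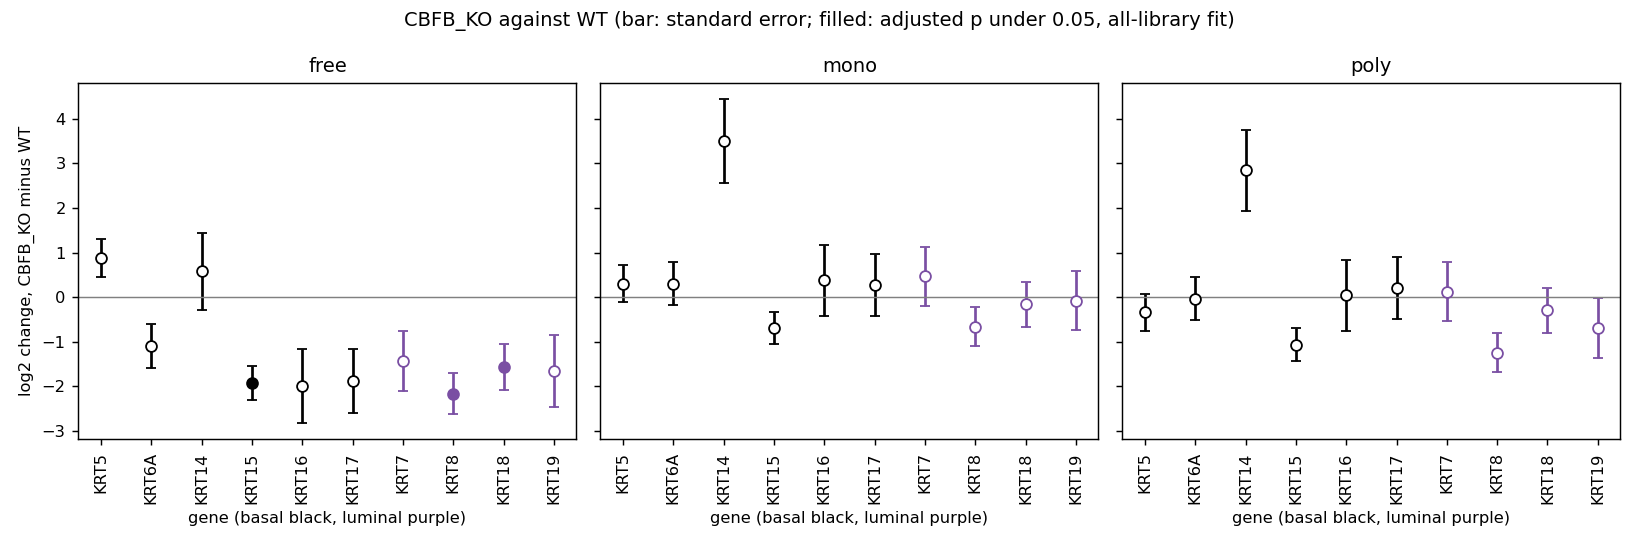
Log2 change of each keratin, CBFB_KO minus WT, in the free, mono and poly fractions from the edgeR fit over all 12 libraries; bars are standard errors and filled points have an adjusted p under 0.05. KRT15, KRT8 and KRT18 are filled in the free panel, and KRT14 stands highest in the mono (3.50) and poly (2.84) panels.

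In the free fraction 3 of 10 members fell in CBFB_KO cells, beside 18.1% of all genes that fell and 42.3% called in either direction, so the share of members is not far from that of all genes. KRT15 was at 508.1 and 611.5 normalised CPM in WT and 162.3 and 132.6 in CBFB_KO free libraries (log2 change -1.92 ± 0.38, adjusted p = 0.00326). KRT8 was at 238.6 and 228.4 against 74.4 and 29.3 (-2.17 ± 0.46, adjusted p = 0.00491), and KRT18, its type I partner, at 505.6 and 275.2 against 199.7 and 64.4 (-1.56 ± 0.52, adjusted p = 0.0326). KRT6A, KRT7, KRT16, KRT17 and KRT19 also lay lower without overlap (-2.00 to -1.10) but missed the threshold. In all, 8 members lay lower without overlap, beside 31.5% of all genes, and the median log2 change was -1.61 over the members and 0.04 over all genes.

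KRT5 and KRT14 did not share that direction. KRT5, the basal type II chain, was at 1188 and 1793 in WT and 3744 and 1727 in CBFB_KO free libraries (0.88 ± 0.42, adjusted p = 0.109), with overlap. KRT14 ran from 4.87 to 12.9 in WT and from 1.42 to 24.8 in CBFB_KO. With library totals in place of TMM factors these 2 turned to -0.65 and -0.71, while the median of all genes moved to -1.57, so KRT5 still lay above that median. These free-fraction values rest on the libraries with the high mitochondrial share. Leaving out all replicate 1 libraries of CBFB_KO gave 8 calls and a KRT14 value of -2.65, leaving out all replicate 2 libraries of CBFB_KO gave 0 calls, and the 4 free libraries alone gave 0 calls (0.0904 for KRT8 and 0.104 for KRT15 as adjusted p, 13.4% of genes called). Without the CBFB_KO free library of 87.22% mitochondrial counts alone, 3 members were called beside 26.0% of all genes, KRT15 (-1.79) and KRT8 (-1.65) lower and KRT5 higher (1.33, adjusted p = 0.0195). With mitochondrially encoded genes removed from the fit, the median of all genes was 0.08, with 3985 genes called higher and 2943 lower. With them kept, it was 0.04, with 3943 and 2939. That removal leaves the low number of other counts in place, so the part of the mitochondrial share in these differences was not tested.

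Ratios between keratins of the same library need no scaling between libraries. They are given as log2 of the TPM ratio, means ± SD of 2 libraries, and an exact permutation test of 2 against 2 cannot go below p = 0.333, so none of them can pass a threshold. KRT14 to KRT5, the basal pair, was -6.42 ± 0.22 in WT and -3.30 ± 0.01 in CBFB_KO poly libraries, an 8.71-fold difference (exact permutation p = 0.333), and it was 7.34-fold in the mono fraction. In the free fraction that pair overlapped between the genotypes. KRT14 to KRT15, the ratio of the basal type I chains, was 13.6-fold higher in CBFB_KO poly and 13.3-fold higher in CBFB_KO mono libraries. KRT18 to KRT8, the pair of simple epithelium, went from 0.96 ± 0.02 to 1.76 ± 0.02 in poly libraries, 1.74-fold, with overlap in the mono and free fractions.

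Summed over each class, basal to luminal keratins hardly differed on ribosomes. The log2 ratio was 1.40 and 1.51 in WT and 1.25 and 1.24 in CBFB_KO poly libraries, and 0.69 and 0.44 against 0.50 and 0.29 in mono libraries. In the free fraction it was higher in CBFB_KO, at 1.61 and 2.40 against 0.64 and 1.23, a 2.1-fold difference (exact permutation p = 0.333). That difference was carried by KRT5, since the ratio without KRT5 went the other way (-0.41 in place of 1.07). The type I to type II ratio of the free fraction was likewise lower in CBFB_KO, at -1.67 and -2.44 against 0.13 and -0.36, and KRT17 to KRT5 was at -1.89 and -3.95 against 1.03 and -0.06. In mono libraries KRT17 to KRT5 did not differ (1.25 ± 0.09 against 1.24 ± 0.17).

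**Figure D3:**
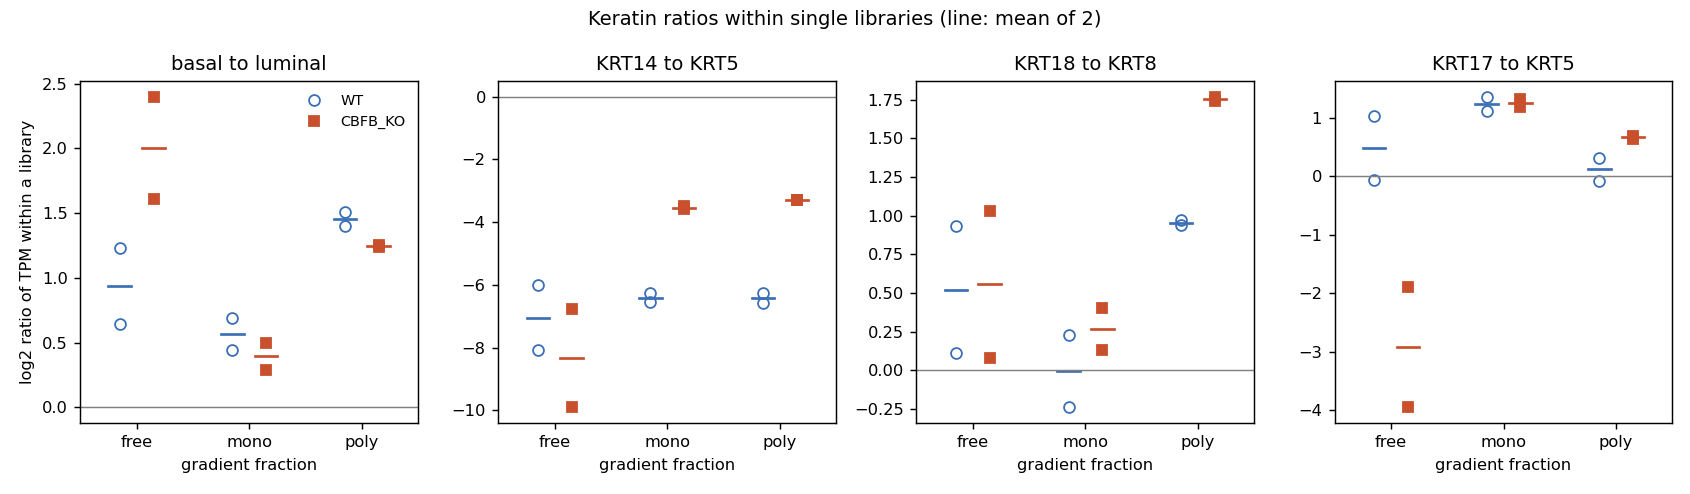
Log2 ratio of TPM within single libraries for the summed basal to luminal keratins, KRT14 to KRT5, KRT18 to KRT8 and KRT17 to KRT5, by fraction, with WT as open circles, CBFB_KO as filled squares and a line at the mean of 2. KRT14 to KRT5 separates the genotypes in mono and poly (poly -6.42 against -3.30), whereas KRT17 to KRT5 separates them most in the free fraction.

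Between fractions of the same genotype, most keratin members lay higher in the polyribosomes. In WT cells, 4 of 10 members rose from the mono to the poly fraction, all of them basal, beside 11.0% of all genes that rose. KRT5 went from 508.1 and 401.9 to 2426 and 2899 normalised CPM (log2 change 2.55 ± 0.44, adjusted p = 0.00441), KRT6A from 274.4 and 164.1 to 1054 and 1407 (2.49 ± 0.52, adjusted p = 0.00798), KRT14 from 3.13 and 2.19 to 18.7 and 19.7 (2.85 ± 0.91, adjusted p = 0.0469) and KRT15 from 441.2 and 267.2 to 1326 and 1375 (1.93 ± 0.38, adjusted p = 0.0061). KRT7, KRT8, KRT16, KRT17 and KRT18 lay 1.09 to 1.55 higher on the log2 scale without overlap but missed the threshold, which made 9 members without overlap beside 33.2% of all genes. KRT19 was at -0.19 ± 0.66, a value that turned to 0.67 when TPM was tested with limma. The median was 1.53 over the members and -0.04 over all genes. None of the 4 calls held when either WT replicate was left out.

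In CBFB_KO cells, 3 of 10 members rose from mono to poly, beside 8.2% of all genes: KRT6A (294.6 and 247.0 to 1208 and 1199, log2 change 2.15 ± 0.51, adjusted p = 0.017), KRT5 (556.6 and 559.7 to 2124 and 2099, 1.92 ± 0.43, adjusted p = 0.014) and KRT15 (228.1 and 210.6 to 641.6 and 648.4, 1.56 ± 0.37, adjusted p = 0.0174). KRT14 went from 30.4 and 30.1 to 137.6 and 138.0 (2.19 ± 0.89, adjusted p = 0.112). In all, 9 members lay higher in poly without overlap, beside 37.7% of all genes, and 1 lower, beside 39.2%. The latter was KRT19, at 1.80 and 1.13 in mono and 0.868 and 0.826 in poly libraries (-0.79 ± 0.67), a value above 0 under library totals. Fitted to the 4 libraries compared, 9 of 10 members were called in either genotype, KRT19 being the exception, beside 17.0% of genes that rose in WT and 27.3% in CBFB_KO. In CBFB_KO, 0 were called over all libraries once the poly pair was counted as 1 sample or either CBFB_KO replicate was left out.

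From free to poly, 1 member rose in WT cells, beside 14.0% of all genes. That was KRT15, from 508.1 and 611.5 to 1326 and 1375 (log2 change 1.27 ± 0.37, adjusted p = 0.0308), a call that was lost when the replicate 1 or the replicate 2 libraries of either genotype were left out. Without the CBFB_KO free libraries it held, joined by KRT5 and KRT6A (17.1% of genes that rose). In all, 8 members lay higher in WT poly without overlap, beside 35.7% of all genes, and 1 lower, beside 26.7%. That 1 was KRT16, at -0.23 ± 0.80, a value above 0 under library totals. In CBFB_KO cells 6 members rose, beside 14.6% of all genes. They were KRT14 (3.38 ± 0.93, adjusted p = 0.0185), KRT19 (2.54 ± 0.82, 0.0348, from 4 and 1 expected counts in the free libraries), KRT17 (2.42 ± 0.72, 0.0262), KRT6A (2.33 ± 0.51, 0.00624), KRT15 (2.13 ± 0.38, 0.00201) and KRT18 (1.51 ± 0.52, 0.0446). KRT5 stood apart here, at 3744 and 1727 in the free and 2124 and 2099 in the poly libraries (-0.37 ± 0.41, adjusted p = 0.513), although library totals without TMM factors put it at 1.68 and limma on TPM at 2.63. The other 9 members lay higher in poly without overlap, beside 38.4% of all genes. With the 4 libraries alone 3 were called (KRT6A, KRT15 and KRT19, beside 16.0% of genes that rose), and without the replicate 2 libraries of CBFB_KO 0 were called.

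**Figure D4:**
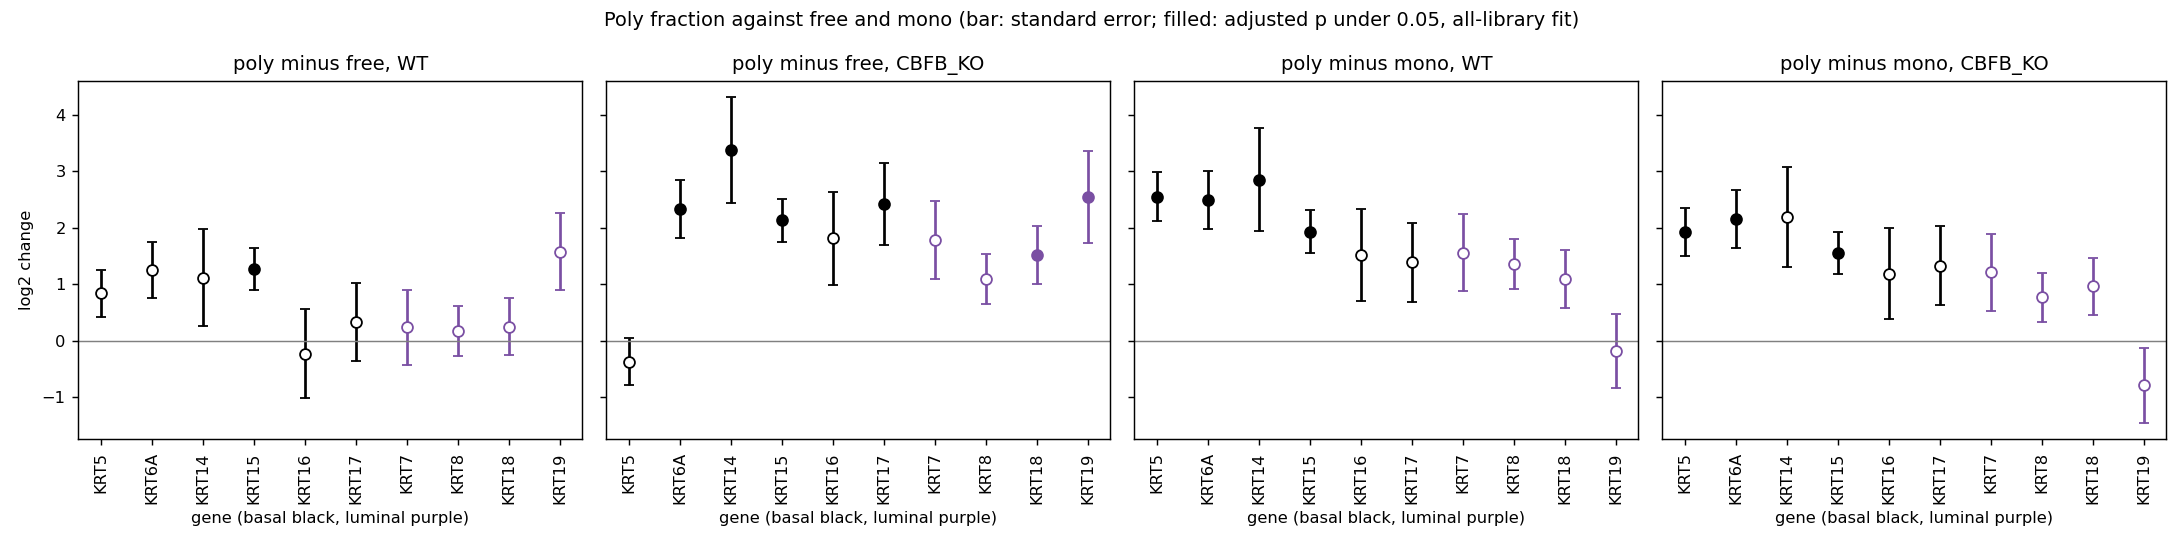
Log2 change of each keratin from free to poly and from mono to poly, in WT and in CBFB_KO cells, from the edgeR fit over all 12 libraries; bars are standard errors and filled points have an adjusted p under 0.05. The 6 filled points of the CBFB_KO free panel lie between 1.51 and 3.38, with KRT5 at -0.37, and KRT5, KRT6A and KRT15 are filled in both mono panels.

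Whether these shifts differed between the genotypes was tested as an interaction. For the poly to free ratio, CBFB_KO against WT, 0 of 10 members were called beside 18.4% of all genes, although 9 members had a higher ratio in CBFB_KO (log2 0.86 to 2.27) and KRT5 a lower one (-1.21 ± 0.59, adjusted p = 0.152). The largest was KRT14 at 2.27 ± 1.22 (adjusted p = 0.189), followed by KRT17 at 2.09 ± 0.98 (0.141) and KRT16 at 2.04 ± 1.14 (0.204). No member and 6180 genes had an unadjusted p under 0.05, and DESeq2 called KRT17 alone (34.4% of genes called). Most called genes had a lower ratio in CBFB_KO (14.3% of all genes, against 4.1% with a higher one), a split that turned with library totals in place of TMM factors (3003 genes higher and 646 lower, with all 10 members higher), and the median was 1.17 over the members and -0.10 over all genes. Without the CBFB_KO free library of 87.22% mitochondrial counts, KRT5 was called lower (-1.66, adjusted p = 0.0359, 13.1% of genes called). For the poly to mono ratio, all 10 members lay between -0.66 and -0.06 (KRT17, the nearest to 0, was at 0.02 with library totals), and edgeR called 0 members and 0 genes (0.0%), with 164 genes at an unadjusted p under 0.05. DESeq2 called 0 members there.

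Genes that act beside keratins gave the members a context. The 20 other keratins held KRT81, a hair-type keratin that exceeded every member in poly libraries (5182.56 and 4852.20 TPM in WT, 4323.74 and 4491.87 in CBFB_KO). Of 12 tested, 1 rose in the free fraction of CBFB_KO cells (KRT80, 5.65 ± 1.41, adjusted p = 0.0104) and 5 fell, KRT6B (-2.05 ± 0.63, 0.025) among them, beside 24.2% and 18.1% of all genes. KRT80 was sparse in WT free libraries, at 0 and 1.13 normalised CPM against 35.75 and 21.44 in CBFB_KO. With the 4 free libraries alone 0 of 8 tested were called. In the fit of the poly libraries alone, which includes the near-equal CBFB_KO pair, 2 of 11 rose, beside 0.424% of all genes. They were KRT13, from 4.10 and 5.69 to 39.2 and 38.1 normalised CPM (2.96 ± 0.22, adjusted p = 0.0224), and the sparse KRT4 (2.94 ± 0.33, 0.0413). In the mono fraction, KRT13 was at 0.961 and 0.689 in WT and 13.8 and 10.5 in CBFB_KO, and the fit without the CBFB_KO free libraries called it (3.88 ± 0.43, adjusted p = 0.00501). KRT4 and KRT13 are the keratin pair of stratified mucosa. Over all libraries 0 of 12 were called in poly or mono.

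Of 20 filament and desmosome partners tested, VIM, the intermediate filament protein of mesenchymal cells, fell in CBFB_KO poly libraries, from 7.51 and 10.7 to 0.402 and 0.449 normalised CPM (-4.42 ± 0.47, adjusted p = 0.00239), and in mono (-3.47 ± 0.49, adjusted p = 0.0183). Under TMM scaling, 12 of these 20 rose and 0 fell in the free fraction, beside 24.2% of all genes that rose. PNN, PKP2, DSC3 and DST stood at 3.53 to 4.67 on the log2 scale. With the 4 free libraries alone 9 rose and 0 fell, beside 12.7% of all genes that rose. Desmosomes anchor keratin filaments, and DSC3 is one of their cadherins and PKP2 a plaque protein. From mono to poly, 16 of 20 rose in WT and 14 in CBFB_KO, beside 11.0% and 8.2% of all genes. These counts were not adjusted for gene length. For the poly to free ratio 13 of 20 had a lower value in CBFB_KO and 0 a higher one, beside 14.3% and 4.1% of all genes, with a list median under TMM scaling of -2.57 where the keratin members had 1.17.

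Among 18 basal lineage genes tested, 8 rose and 2 fell in the free fraction of CBFB_KO cells. Those that fell were ACTA2 (-1.58 ± 0.43, adjusted p = 0.0144) and TAGLN (-2.75 ± 0.67, 0.00916). TP63, the master regulator of basal epithelium, was at 3.67 and 4.54 in WT and 111.5 and 237.0 normalised CPM in CBFB_KO free libraries (5.41 ± 0.57, adjusted p = 0.000105), and EGFR rose by 5.13 ± 0.70 (0.000447). In poly libraries TP63 was at 9.32 and 13.8 in WT against 12.1 and 11.4 in CBFB_KO, with overlap. Of 13 luminal lineage genes 7 rose and 2 fell in the free fraction, with EPCAM at 3.61 ± 0.55 and MUC1 at 3.25 ± 0.49 (0.000829 and 0.000792 as adjusted p). Those that fell were CLDN7 (-1.61 ± 0.52, adjusted p = 0.0284) and ELF3 (-2.7 ± 0.47, 0.00182). Over all libraries 0 of either list were called in mono or poly. In the fit of the poly libraries alone MUC1 (-2.64 ± 0.21, adjusted p = 0.0244) and ELF3 (-1.58 ± 0.17, 0.0413) fell, beside 0.758% of all genes. Of 19 regulators of keratin genes 9 rose and 3 fell in the free fraction, and 0 were called in mono or poly. TP63, SP1, KLF5 (5.13 ± 0.52, adjusted p = 9.07e-05) and TFAP2A were all at 4.56 or more. Those that fell were CEBPB (-3.19 ± 0.57), CEBPA (-2.98 ± 0.88) and OVOL1 (-2.93 ± 1.04). The shares of all genes were 24.2% that rose and 18.1% that fell, for the regulators as for the lineage lists. With the 4 free libraries alone, 5 of 18 basal lineage genes rose and 0 fell. Of 11 luminal lineage genes 4 rose and 1 fell there, and of 19 regulators 7 rose and 1 fell. In that fit 12.7% of all genes rose and 0.676% fell. How many genes rose depended on the scaling. Library totals called 1281 genes higher and 6461 lower in the free fraction, against 3943 and 2939 with TMM factors. The lists were not counted with library totals. In free-fraction TPM, EPCAM (1.14 and 0.34 in WT, 2.6 and 0.98 in CBFB_KO) and EGFR overlapped between the genotypes. TP63 (0.7 and 0.95 against 6.85 and 5.18) and MUC1 (38.5 and 40.73 against 56.19 and 48.4) did not.

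Across the 12 libraries the members did not share a single pattern. KRT7 and KRT17 tracked each other most closely (Pearson r of log2 CPM 0.99), followed by KRT7 and KRT16 (0.98) and KRT16 and KRT17 (0.97), with KRT18 close by (0.96 with KRT17). KRT8 and KRT18 gave 0.89 and KRT8 and KRT15 0.88. KRT5 and the sparse KRT19 stood apart. KRT5 had 0.36 for KRT14, its partner, and 0.63 for KRT6A as its highest value. KRT19 had 0.53 for KRT17 as its highest value and -0.5 for KRT5. Among 2518 abundant genes outside the keratins, the most alike was TUBB3 for KRT17 (0.988), AP1M2 for KRT18 (0.984), ARMC6 for KRT16 (0.981), PSMD3 for KRT6A (0.977), FSCN1 for KRT5 (0.966), SHMT2 for KRT15 (0.961), CPNE1 for KRT8 (0.960), S100A9 for KRT19 (0.944) and CD151 for KRT14 (0.836). These values describe 12 libraries that share fractions, gradients and depth, and the CBFB_KO free libraries weigh heavily in them.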

How the data were processed

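Per the labels, RNA from sucrose gradient fractions of MCF10A cells was made into TruSeq mRNA libraries and sequenced on an Illumina instrument. The study's general RNAseq methods name rRNA removal instead, and they do not say which was used for the fractions. The submitters' processing notes name Trimmomatic, STAR, RSEM and hg19, without versions. From each library the authors deposited expected counts per gene, in which RSEM shares a read that fits several genes out between them. They also deposited TPM, which RSEM divides by effective length and brings to 1 sum per library, so that a high mitochondrial share lowers all other genes. The deposited FPKM values and some hand-typed notes beside the tables were not used.

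Expected counts were rounded and fitted with edgeR 4.0.16 (R 4.3.3, quasi-likelihood, TMM, filterByExpr on the 6 groups, a mean per group over 12 libraries). Adjusted p is Benjamini-Hochberg over all genes tested, with 0.05 as the threshold, and SE is the size of the log2 change over the square root of F. Groups were taken from the labels. No label says that replicates were separate cultures, so p-values measure the spread between these libraries only. Alternatives used RLE factors, library totals, DESeq2 1.42.0, limma 3.58.1 on log2(TPM + 1), other filters, blocks and left-out libraries. Others removed mitochondrially encoded genes or a smooth trend on gene length, or summed near-identical gene copies. Fits without the CBFB_KO free libraries, of the poly libraries with the CBFB_KO pair as 1 sample, and of the poly libraries without 1 WT library were added after seeing the data. Scripts were tested on simulated data. Ratios and figures used Python 3.11.15, pandas 2.3.3, scipy 1.17.1 and matplotlib 3.10.9. Sequences and chromosomes came from GENCODE 29 (GRCh38), and no coordinates are given because that build differs from hg19.

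The genes named were the 10 members, CBFB, up to 4 called genes per list with the largest change, and the 3 genes most alike each member (mean log2 CPM of at least 5), of which the most alike is printed (that of KRT7 is not reported here). TP63 in poly libraries, KRT81, KRT13 and the lineage genes and regulators that fell in the free fraction were named after their values were seen. Members and gene lists (other keratins, basal lineage, luminal lineage, filament and desmosome partners, keratin regulators) were chosen with earlier results of these data known. Precision rests on 2 libraries a group, and 3 counts are the floor below which a gene is not told from 0.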

Additional observations from a re-analysis of the deposited data

Results flagged for a closer look

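KRT16 was singled out among the 10 members because its poly to free change had opposite signs in every pairing of libraries of the 2 genotypes, under TMM scaling. In each pairing of WT libraries the log2 poly to free ratio lay below 0 (-0.28 to -0.17), and in each pairing of CBFB_KO libraries above it (0.89 to 4.87). The difference between the genotypes, 2.04 ± 1.14 on the log2 scale, did not pass the edgeR interaction test (adjusted p = 0.204). The sign in WT rested on the scaling, since the WT change was -0.23 with TMM factors, 0.31 with library totals and 0.51 with limma on TPM. KRT5 also changed sign between the genotypes (0.84 in WT, -0.37 in CBFB_KO), with overlap of the CBFB_KO libraries. The higher CBFB_KO value came with the free library that held 30 expected counts of KRT16 and 87.22% mitochondrial counts. With mitochondrially encoded genes removed from the fit, 9 members had a higher poly to free ratio in CBFB_KO, the same number as with them kept. That removal leaves the low number of other counts in place, so the part of the mitochondrial share was not tested.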

How the results depend on the processing

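In CBFB_KO against WT, free fraction, 3 were called as reported, 5 with RLE factors, 8 with library totals, 8 with DESeq2, 7 with limma on TPM, 6 without a filter, 0 with the 4 libraries alone, and 0 to 8 with replicates left out. In mono the count went from 0 to 1 with DESeq2, without a filter and without the CBFB_KO free libraries, and lay at 0 to 1 with replicates left out. In poly it went from 0 to 2 with DESeq2, 1 without a filter, 3 with the 4 poly libraries alone, and 1 without the CBFB_KO free libraries. With replicates left out it lay at 0 to 9, where the highest counts, 8 and 9, came from the poly libraries without 1 WT library, a fit whose spread rests on the close CBFB_KO pair and which called 8555 and 9405 genes. There KRT6A turned to 0.20.
From free to poly in WT, 1 call became 2 with DESeq2 or limma, 3 without the CBFB_KO free libraries and 0 without a filter, with the 4 libraries alone or with the CBFB_KO poly pair as 1 sample (0 to 3 with replicates left out). In CBFB_KO, 6 became 10 with library totals or limma, 3 with the 4 libraries alone, 2 with the pair as 1 sample, and 0 to 8 with replicates left out. From mono to poly in WT, 4 became 10 with limma, 7 without a filter, 9 with the 4 libraries alone, 9 without the CBFB_KO free libraries, and 0 to 9 with replicates left out. In CBFB_KO, 3 became 6 with limma, 9 with the 4 libraries alone, 7 without the CBFB_KO free libraries, 0 with the pair as 1 sample, and 0 to 7 with replicates left out. For the poly to free interaction, 0 became 1 with library totals, 1 with DESeq2, 8 with limma, 3 without a filter, and 0 to 4 with replicates left out. The poly to mono interaction stayed at 0 members in every fit run, with at most 16 genes.
Single values reversed for KRT14 in the free fraction (-2.65 without CBFB_KO replicate 1, while without replicate 2 it was 1.48), for KRT5 from free to poly in CBFB_KO (1.68 with library totals, 2.63 with limma) and for KRT19 from mono to poly in WT (0.67 with limma). The basal to luminal ratio of the free fraction was -0.41 without KRT5 and 1.66 from expected counts, and that of poly was -0.12 from expected counts. Its range with replicates left out was 0.68 to 1.47 in free, -0.30 to -0.04 in mono and -0.27 to -0.16 in poly.
With library totals in place of TMM factors the median of all genes in CBFB_KO against WT, free fraction, moved from 0.04 to -1.57, and the called genes from 3943 higher and 2939 lower to 1281 and 6461. From free to poly the split moved from 2273 and 1301 to 2495 and 347 in WT and from 2381 and 2723 to 7669 and 566 in CBFB_KO, and from mono to poly from 1784 and 1576 to 2767 and 270 in WT and from 1335 and 1409 to 2520 and 161 in CBFB_KO. For the interaction of poly and free it moved from 668 and 2332 to 3003 and 646. Over the alternatives, genes called ranged from 1481 to 8584 (6882 as reported) in free, 0 to 121 (24) in mono, 0 to 9405 (31) in poly, 1591 to 5187 (3574) and 406 to 10258 (5104) from free to poly in WT and CBFB_KO, 0 to 6031 (3360) and 0 to 7582 (2744) from mono to poly, and 274 to 5962 (3000) for the interaction.
The labels do not say that a replicate number marks a shared day, and deviations of same-numbered libraries correlated at 0.002 to 0.24 in the pairs compared. A replicate block gave 5 calls in CBFB_KO against WT, free, and 0 in mono and poly, 7 from free to poly in CBFB_KO and 5 from mono to poly in WT, and a block on the gradient gave 0 from free to poly in WT, 6 in CBFB_KO, and 4 and 3 from mono to poly. Depth limits KRT19 and the CBFB_KO free values, where KRT19 had 4 and 1 counts.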
